A study of Homo sapiens with 6 samples.

Results

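The 52 interferon-stimulated genes described here were taken from a fixed list of gene symbols and read out of a transcriptome comparison of HEK293 cells, a human embryonic kidney line, with and without the mitochondrial E3 ubiquitin ligase MUL1. That list was chosen with earlier results of these data known. Each symbol was matched to its Ensembl gene, and all 52 were found among the 57885 genes of the tables. The study sequenced mRNA from 3 libraries of wild-type (WT) HEK293 cells and 3 libraries of HEK293 cells labelled MUL1(-/-), a knockout derivative of the line, grown in standard medium. The sources used here name no added interferon, virus or nucleic acid in either group. The values are therefore read as resting levels, which was not tested. The sources also do not say whether the 3 libraries of a genotype came from separate clones or cultures. P-values therefore measure the spread between these libraries, which may be technical, and what is particular to the knockout line cannot be told apart from the loss of MUL1.

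Interferon-stimulated genes are the genes that cells switch on after type I interferon binds its receptor, made of IFNAR1 and IFNAR2. The receptor's kinases phosphorylate STAT proteins, STAT2 among them, which join IRF9 in the complex ISGF3, and ISGF3 binds a DNA element called the interferon-stimulated response element (ISRE) next to these genes. Many of the genes also have a basal level that does not need added interferon. Their products block virus entry, translation, assembly and release, edit or degrade RNA, or modify proteins with ISG15, ubiquitin or ADP-ribose. HEK293 cells carry adenoviral transforming genes and are known for a weak innate response.

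Levels are given as CPM, the counts over a gene's exon bins relative to 1e6 counts over all bins of that library, after TMM scaling. Of the 52 genes, 16 had a WT mean under 1 CPM, 19 had a mean from 1 to 10 CPM and 17 had a mean of at least 10 CPM. Fold changes are log2 values of MUL1(-/-) minus WT, and each adjusted p is from edgeR's quasi-likelihood test with Benjamini-Hochberg adjustment over all 26060 tested genes. A gene was called by the study's thresholds, an adjusted p under 0.05 with an absolute log2 fold change above 1, and the count by adjusted p alone is given beside it. A single count was worth 0.00678 to 0.0078 CPM, and a sum of 3 counts, taken as the floor, 0.0203 to 0.0234 CPM.

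The members went in both directions. In MUL1(-/-) libraries 9 members were higher past both thresholds, against a background of 4.17% of all tested genes, and 5 were lower, against 3.75%. By adjusted p alone 15 were higher and 8 were lower, where 19.3% and 18.5% of all tested genes were called, and 23 of the 46 tested members were not called. Every MUL1(-/-) library lay above every WT library for 21 tested members and below for 10, where the backgrounds are 24.9% and 24.1%, and for 15 members the groups overlapped. The median log2 fold change of the tested members was 0.16, with quartiles of -0.19 and 0.66, beside a median of -0.00 and quartiles of -0.29 and 0.29 over all tested genes. The 46 that passed the filter on low counts are not all members: OAS1, OAS2, MX2, RSAD2, SAMD9L and XAF1 were too low to test, and OASL, GBP1 and CMPK2 passed the filter through the libraries of 1 genotype alone. The 9 higher include GBP1 and the 5 lower include CMPK2, each of which passed the filter only in the genotype where it is higher.

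**Figure D1:**
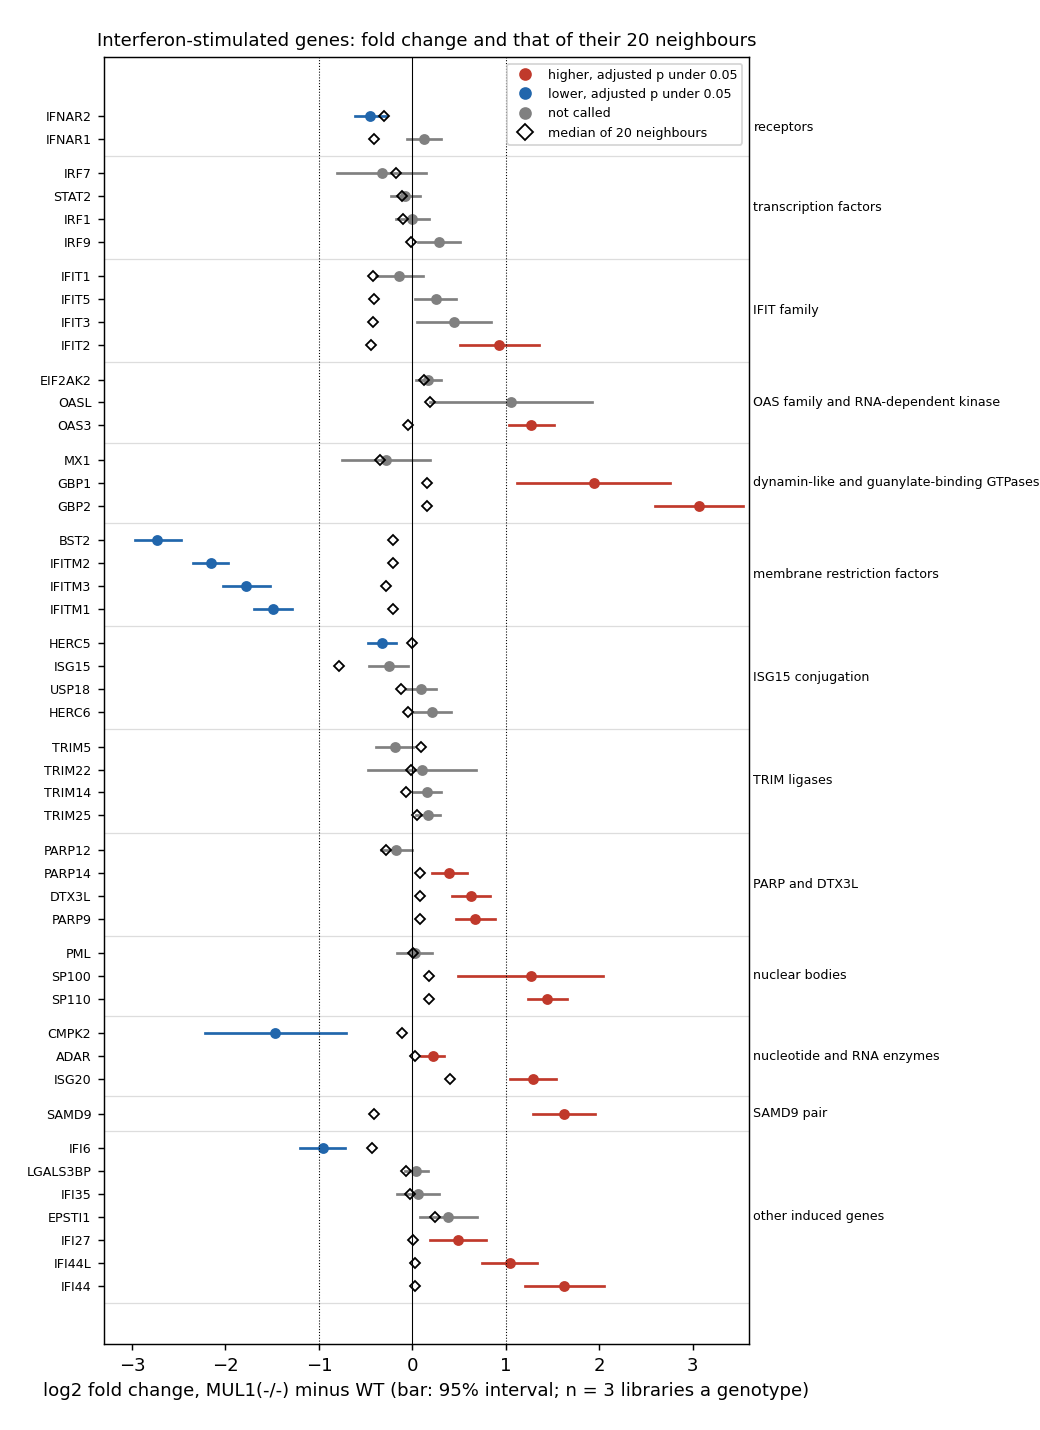
Log2 fold change (MUL1(-/-) minus WT, x axis) of the 46 tested members, grouped by role, with nominal 95% intervals (normal quantile of the SE) from 3 libraries a genotype, and the median of the 20 tested genes nearest to each as a diamond. BST2 and the 3 IFITM genes lie left of -1, while GBP2, at 3.07, lies farthest to the right.

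The sequence that links most of these genes is the ISRE, so the sites beside the members that moved are shown before their values. In RefSeq promoter windows on GRCh38.p14, from 250 bases before to 50 after a gene start, the core GAAANNGAAA was searched on both strands, with overlapping matches counted. It was present in 27 of the 41 members with a window (65.9%) and in 1195 of all 27305 genes with one (4.38%). The lines below give each site in the direction of the gene with the matched core in capitals and flanks of 10 bases in lower case; a core on the other strand reads TTTC at both ends. They begin with 3 sites of lower members, go on to higher members, and end with members that did not pass the test.
BST2, chr19:17405735-17405770, minus strand: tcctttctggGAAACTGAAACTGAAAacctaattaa
IFITM3, chr11:320876-320922, minus strand: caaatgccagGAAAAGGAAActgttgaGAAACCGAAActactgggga
IFITM1, chr11:314024-314053, plus strand: acacttctgaGAAACTGAAAcgacagggga
OAS3, chr12:112938321-112938350, plus strand: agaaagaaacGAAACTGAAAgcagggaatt
SAMD9, chr7:93118096-93118125, minus strand: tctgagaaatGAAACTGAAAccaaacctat
ISG20, chr15:88638937-88638966, plus strand: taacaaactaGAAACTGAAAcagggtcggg
IFI44L, chr1:78620365-78620394, plus strand: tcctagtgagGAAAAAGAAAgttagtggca
IFI44, chr1:78649761-78649790, plus strand: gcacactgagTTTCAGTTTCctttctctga
GBP1, chr1:89065316-89065345, minus strand: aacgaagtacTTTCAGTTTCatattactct
DTX3L, chr3:122564322-122564351, plus strand: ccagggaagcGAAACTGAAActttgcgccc
PARP9, chr3:122564322-122564351, minus strand: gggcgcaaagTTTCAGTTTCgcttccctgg
ISG15, chr1:1013374-1013409, plus strand: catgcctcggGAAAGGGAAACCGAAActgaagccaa
IFIT1, chr10:89392497-89392539, plus strand: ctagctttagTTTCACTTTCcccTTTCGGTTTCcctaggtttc
EIF2AK2, chr2:37156967-37156996, minus strand: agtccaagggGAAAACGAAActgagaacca

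The core was present in 10 of 13 members with a window that were higher by adjusted p (76.9%), in 5 of 6 that were lower (83.3%) and in 11 of 18 that were tested and not called (61.1%), so members that were higher, lower and not called carried it. Of the untested members with a window 1 of 4 had it. The letters GAAACTGAAA, on either strand, stood beside BST2 and IFITM1, which were lower, beside OAS3, SAMD9, ISG20, IFI44, GBP1, DTX3L and PARP9, which were higher, beside IFIT3 and IFIT5, which were not called, and beside RSAD2, which was not tested. The GAS core TTCNNNGAA, a motif for STAT dimers that reads the same on both strands, was in 11 of the 41 members (26.8%) and in 9.38% of all genes with a window. Among members called by adjusted p, the windows of SP100, SP110, ADAR and CMPK2 held no GAAANNGAAA, which says only that these letters are not in those windows of 300 bases. GBP2, IFITM2, IFIT2, IFNAR2, IRF7, MX2, OAS2, OASL, PML, TRIM22 and USP18 had no window in the table.

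The receptor and the transcription factors that carry the interferon signal were all expressed, and of these 6 genes only IFNAR2 passed the test. IFNAR1, the receptor chain that binds the kinase TYK2, was at 38.4, 37.5 and 41.2 CPM in WT and at 37.4, 40.7 and 49.3 CPM in MUL1(-/-), a difference of 0.12 ± 0.09 in log2, where the error is the SE (adjusted p = 0.344). IFNAR2, the chain that binds JAK1, was at 43.6, 37.6 and 36.6 CPM in WT and at 26.9, 29.4 and 30.0 CPM in MUL1(-/-). All 3 MUL1(-/-) values for IFNAR2 lay below the WT values, and the log2 fold change was -0.45 ± 0.08 (adjusted p = 0.00076). Its bins are shared for 95.4% of its counts with a neighbouring gene and a read-through transcript under a joined identifier, the median of its 20 neighbours was -0.30, and in the most counted bin it was -0.29 with an adjusted p of 0.0547. In the bins that IFNAR2 does not share it was -0.45 (adjusted p = 0.0295), and all 25 of its bins with at least 20 counts were lower in MUL1(-/-). It passed the adjusted p in 15 of 16 alternative settings. The setting less the neighbours is among these and keeps the main fit's p, so its pass was fixed.

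STAT2, the STAT particular to the ISGF3 complex, had 37.2, 37.8 and 42.9 CPM in WT and 38.9, 36.8 and 36.3 CPM in MUL1(-/-). The log2 fold change of STAT2 was -0.08 ± 0.08 (adjusted p = 0.484), with a 95% interval from -0.23 to 0.08. IRF1, a factor induced by interferon gamma that binds ISRE-like sites itself, stood at 9.77, 9.56 and 9.59 CPM in WT and 9.93, 9.52 and 9.55 CPM in MUL1(-/-), and its interval ran from -0.17 to 0.18. Both intervals lie within 1 log2 unit of 0, but they cover only the spread between these libraries, which may be technical. Shared bins held 45.7% of the counts of IRF1, and in its unshared bins the change was -0.05 (adjusted p = 0.752).

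IRF9, the DNA-binding part of ISGF3, was at 6.73, 6.20 and 8.31 CPM in WT and at 8.51, 8.18 and 9.20 CPM in MUL1(-/-), and the groups overlapped at 1 WT library. The log2 fold change was 0.29 ± 0.12 (adjusted p = 0.0683); 5 of 16 alternative settings called it, and in the bins that IRF9 does not share with neighbours, which hold the smaller part of its counts since 84.4% are in shared bins, it was -0.13 (adjusted p = 0.603). IRF7, the factor that amplifies interferon production, had 5.06, 10.6 and 5.47 CPM in WT and 7.52, 4.79 and 4.60 CPM in MUL1(-/-). WT library 2 was well above the other WT libraries for IRF7, and no difference passed the test (-0.33 ± 0.25, adjusted p = 0.325). Without that library the direction of IRF7 turned, to 0.08 (adjusted p = 0.788).

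The 4 membrane restriction factors were all lower, the only role group of the 13 in which every member passed both thresholds. The role groups were chosen with earlier results of these data known, so this uniformity is not a test. The IFITM genes among them are adjacent paralogs that can share reads, so they are not separate observations. BST2, also called tetherin, holds budding viruses at the cell surface. The gene (GRCh38, chr19:17402939-17405648, minus strand) was counted at 51.4, 48.1 and 42.9 CPM in WT and at 7.31, 8.54 and 5.68 CPM in MUL1(-/-). The lowest WT value was far above the highest MUL1(-/-) value, and the log2 fold change of -2.73 ± 0.13 (adjusted p = 2.13e-09) is a level 6.61 times higher in WT. In WT the gene ranked 2 among the 52 by CPM per kb of exon bins (42.4), and in MUL1(-/-) it ranked 9 (6.41). All 9 of its bins with at least 20 counts were lower in MUL1(-/-), each without overlap between the groups.

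The IFITM proteins sit in cell and endosome membranes and block the fusion of viruses. IFITM2, found mainly in endosomes, was at 21.9, 19.3 and 18.7 CPM in WT and at 4.37, 4.38 and 4.63 CPM in MUL1(-/-), a log2 fold change of -2.16 ± 0.10 (adjusted p = 1.35e-09). IFITM1, found more at the cell surface, had 15.3, 14.7 and 13.5 CPM in WT and 5.54, 5.26 and 4.67 CPM in MUL1(-/-), a change of -1.49 ± 0.10 (adjusted p = 1.12e-07). IFITM3, a close relative of IFITM2, had the lowest WT level of the family per length (2.78 CPM per kb), at 3.77, 3.89 and 3.58 CPM in WT, and had 1.07, 1.02 and 1.19 CPM in MUL1(-/-) (-1.78 ± 0.13, adjusted p = 2.25e-07). For each of these genes the WT and MUL1(-/-) libraries formed groups with a wide gap and little spread inside them.

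The 3 IFITM genes lie next to each other on chromosome 11 (GRCh38, chr11:307631-327537), and the median log2 fold change of their neighbours was -0.21 to -0.28. They are near-identical paralogs, IFITM1 and IFITM2 share a joined identifier, and reads could be split between them, so the sizes of the separate falls are uncertain. In bins that belong to a single gene the log2 fold changes were -1.51 for IFITM1, -2.62 for IFITM2 and -1.79 for IFITM3, and in the most counted bin of each gene they were -1.54, -1.39 and -2.03. Taken as a sum, the group of 4 went from 78.7 to 92.4 CPM in WT to 16.2 to 19.2 CPM in MUL1(-/-).

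**Figure D2:**
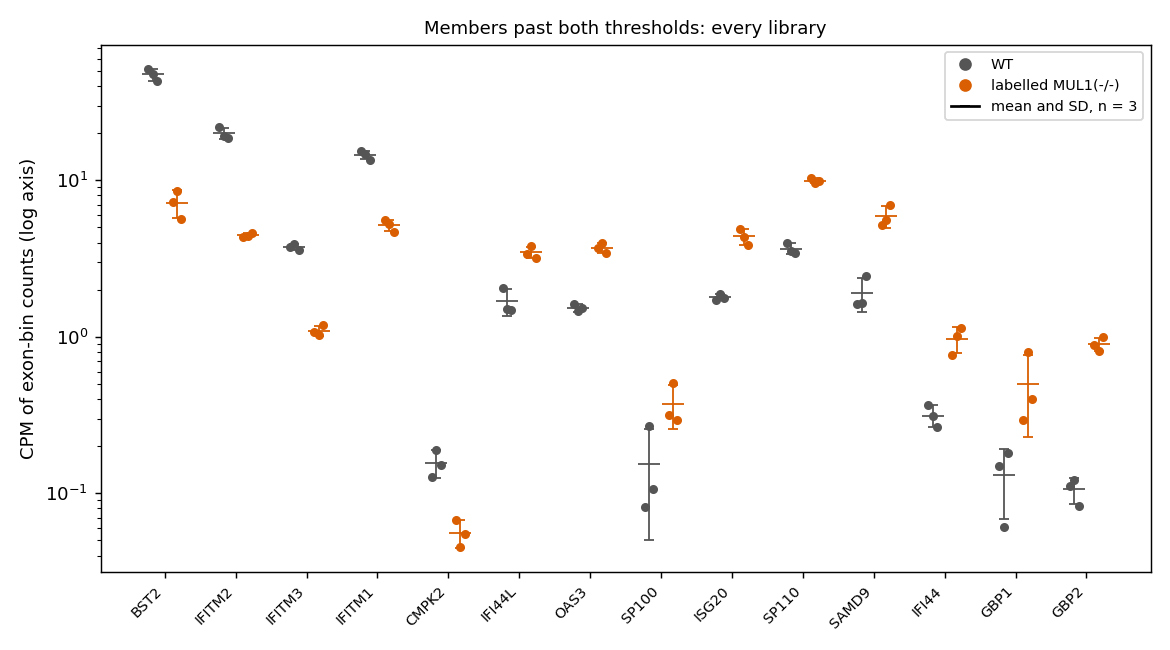
CPM (log axis) of the 14 members past both thresholds in each WT library (grey) and each MUL1(-/-) library (orange), with the mean and SD of 3 libraries. The genotypes do not overlap for any of the 14 genes, and BST2, IFITM1, IFITM2 and IFITM3 had WT means of 3.75 to 47.5 CPM, where the 9 genes that were higher had 0.106 to 3.66 CPM and CMPK2, which was lower, had 0.156 CPM.

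The members that were higher past both thresholds all started low. Per length their WT means ran from 0.0121 to 0.533 CPM per kb, whereas BST2 and the IFITM genes had 2.78 to 42.4 and the 23 members not called 0.0253 to 120 CPM per kb. CMPK2, the remaining member lower past both thresholds, was also low in WT, at 0.0363 CPM per kb. Low levels were common among such genes over the whole table. When at least 1 CPM in at least 3 libraries was required, genes higher past both thresholds went from 1086 of 26060 to 352 of 16813 tested. A low start is thus not particular to these members. The guanylate-binding proteins, GTPases that attack the vacuoles and membranes around intracellular pathogens, included GBP2, with the largest rise among the tested members. GBP2 (GRCh38, chr1:89106132-89150456, minus strand) had 15, 18 and 11 counts in WT and 118, 107 and 127 in MUL1(-/-), or 0.112, 0.122 and 0.0834 CPM against 0.890, 0.815 and 0.991 CPM, a log2 fold change of 3.07 ± 0.24 (adjusted p = 4.3e-07). GBP1 had 20, 9 and 24 counts in WT and 39, 105 and 51 in MUL1(-/-), a change of 1.94 ± 0.42 (adjusted p = 0.00215). GBP1 passed the filter on low counts only through the MUL1(-/-) libraries, where it is higher, so its call is not independent of that filter. The GBP1 groups did not overlap, but MUL1(-/-) library 2 was well above the other MUL1(-/-) libraries, and without it the change was 1.41 (adjusted p = 0.0176). GBP1 and GBP2 are neighbours within 98.1 kb on chromosome 1, GBP2 shares its identifier with another gene, and the reads of such paralogs can be split.

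MX1 and MX2 belong to the other GTPase branch, the dynamin-like proteins that trap viral nucleocapsids. MX1 was at 0.671, 1.13 and 0.735 CPM in WT and 0.543, 0.914 and 0.640 CPM in MUL1(-/-), with fully overlapping groups (-0.28 ± 0.24, adjusted p = 0.400). MX2 had 6 to 9 counts in WT and 7 to 21 in MUL1(-/-) and was not tested.

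The oligoadenylate synthetases make the messenger that activates RNase L when they meet viral RNA. OAS3, which responds best to long RNA (GRCh38, chr12:112938352-112973249, plus strand), was at 1.63, 1.46 and 1.52 CPM in WT and at 3.71, 3.99 and 3.44 CPM in MUL1(-/-), with a log2 fold change of 1.27 ± 0.13 (adjusted p = 3.73e-06). All 25 of its bins with at least 20 counts were higher in MUL1(-/-), and its 20 neighbours had a median of -0.05. OAS1 and OAS2, which flank OAS3 within 105 kb on chromosome 12, had at most 15 and 12 counts in any library and were not tested. OASL, a relative that has lost the enzyme activity, had 5 to 17 counts in WT and 16 to 33 in MUL1(-/-), and its log2 fold change of 1.05 ± 0.44 did not pass the test (adjusted p = 0.0759).

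EIF2AK2, the kinase PKR that stops translation upon binding viral RNA, was more abundant per length, at 5.19 CPM per kb in WT against 0.186 for OAS3. Its WT libraries had 56.2, 57.7 and 53.7 CPM and its MUL1(-/-) libraries 59.2, 64.7 and 65.1 CPM. Every MUL1(-/-) value was above every WT value, by a small amount (0.17 ± 0.07, adjusted p = 0.0649).

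The IFIT proteins bind viral RNA by its end structure and block its translation. Only IFIT2 of the 4 passed the test: it had 0.313, 0.332 and 0.379 CPM in WT and 0.739, 0.693 and 0.523 CPM in MUL1(-/-), a log2 fold change of 0.93 ± 0.22 (adjusted p = 0.00354), under the fold threshold. IFIT5, the most abundant by CPM per kb, was at 10.9, 10.7 and 14.2 CPM in WT and 13.7, 15.1 and 13.6 CPM in MUL1(-/-), with 1 WT library among the MUL1(-/-) values (0.25 ± 0.11, adjusted p = 0.101). IFIT1, often used as the marker of an interferon response, averaged 4.41 ± 0.637 CPM in WT and 4.0 ± 0.248 CPM in MUL1(-/-), each with the SD of 3 libraries, and its log2 fold change was -0.14 with an interval from -0.39 to 0.11. IFIT3 was at 0.44 ± 0.20 (adjusted p = 0.101). The 4 genes lie within 137 kb of chromosome 10, where the neighbour medians were -0.41 to -0.44.

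ISG15 is a ubiquitin-like protein, HERC5 is the ligase that attaches it, and USP18 removes it and also dampens the interferon receptor. HERC5 fell slightly, from a mean of 40.6 ± 1.17 CPM in WT to 32.3 ± 2.34 CPM in MUL1(-/-) (-0.33 ± 0.08, adjusted p = 0.00347). USP18, with the highest CPM per kb of the 4, had 19.3, 18.2 and 17.6 CPM in WT and 19.4, 20 and 19.3 CPM in MUL1(-/-), and its interval ran from -0.06 to 0.25. ISG15 itself averaged 6.88 ± 0.585 and 5.77 ± 0.258 CPM (-0.25 ± 0.10, adjusted p = 0.0729), beside a neighbour median of -0.78. HERC6, next to HERC5 on chromosome 4, was at 0.21 ± 0.10 (adjusted p = 0.112).

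The TRIM genes showed no called member. TRIM25, which adds ubiquitin to the RNA sensor RIG-I, was at 67.4, 64.2 and 63.3 CPM in WT and 72.4, 70.7 and 75.9 CPM in MUL1(-/-), higher in 3 of 3 libraries but only by 0.17 ± 0.07 (adjusted p = 0.0611). TRIM14, an adaptor at mitochondria, had 0.16 ± 0.08, TRIM5, which binds retroviral capsids, -0.19 ± 0.10, and TRIM22 0.10 ± 0.30, at a mean of only 0.256 CPM in WT.

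PARP9 and DTX3L form a complex that joins ADP-ribose and ubiquitin chemistry, and PARP14 is an ADP-ribosyltransferase beside them. The 3 genes lie within 203 kb of chromosome 3 and were all higher by adjusted p, below the fold threshold. PARP9 averaged 7.13 ± 0.324 CPM in WT and 11.4 ± 1.29 CPM in MUL1(-/-), a log2 fold change of 0.67 ± 0.10 (adjusted p = 0.000157). DTX3L averaged 4.24 ± 0.181 and 6.55 ± 0.462 CPM, with 0.63 ± 0.11 (adjusted p = 0.000346). The genes lie head to head, and the printed sites are the same ISRE core at chr3:122564332-122564341, which spans the start of DTX3L (bases -6 to 4), where it reads GAAACTGAAA, and lies before that of PARP9 (bases -41 to -32), where it reads TTTCAGTTTC.

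PARP14 averaged 9.76 ± 0.376 CPM in WT and 12.8 ± 1.13 CPM in MUL1(-/-) (0.39 ± 0.09, adjusted p = 0.0046), and all 26 of its bins with at least 20 counts were higher. The neighbour median of each of the 3 genes was 0.08. PARP9 and DTX3L overlap at their starts and share 8.18% and 13.4% of their counts, and in unshared bins their log2 fold changes were 0.65 and 0.59. PARP12, an RNA-binding relative on chromosome 7, was at 14.0, 13.4 and 15.4 CPM in WT and 12.9, 12.3 and 12.8 CPM in MUL1(-/-), a difference that did not pass the test (-0.17 ± 0.09, adjusted p = 0.142).

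Of the proteins of PML nuclear bodies, structures that silence viral DNA, SP110 and SP100 were higher and PML was not called. SP110, at 4.0, 3.54 and 3.44 CPM in WT and 10.4, 9.61 and 9.85 CPM in MUL1(-/-), had a log2 fold change of 1.44 ± 0.10 (adjusted p = 2.02e-07), and all 36 of its bins with at least 20 counts were higher. SP100 was lower per length, at 0.0121 CPM per kb in WT against 0.533 for SP110, with 11, 40 and 14 counts in WT and 42, 67 and 38 in MUL1(-/-), or 0.0820, 0.271 and 0.106 CPM against 0.317, 0.510 and 0.296 CPM. The SP100 difference of 1.27 ± 0.40 (adjusted p = 0.0208) lost its call when WT library 1 (0.96, adjusted p = 0.0845), WT library 3 (1.05, adjusted p = 0.0694) or MUL1(-/-) library 2 (0.98, adjusted p = 0.108) was left out, and it was 1.97 without WT library 2. PML, the scaffold of the bodies, stood at 34.7, 32.1 and 26.3 CPM in WT and 32.2, 31.2 and 31.6 CPM in MUL1(-/-), with an interval from -0.16 to 0.21.

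SAMD9, which restricts poxviruses, was at 1.63, 1.65 and 2.45 CPM in WT and at 5.16, 5.54 and 6.94 CPM in MUL1(-/-), a log2 fold change of 1.62 ± 0.17 (adjusted p = 5.06e-06). The genes around it had a median of -0.41, opposite in sign. Its paralog SAMD9L, in the same 48.9 kb of chromosome 7, had 5, 6 and 5 counts in WT and 19, 12 and 7 in MUL1(-/-) and was too low to test.

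Among the enzymes that act on nucleotides and RNA, ISG20, an exonuclease that degrades viral RNA, was higher and CMPK2, a mitochondrial nucleotide kinase, was lower. ISG20 had 1.73, 1.88 and 1.76 CPM in WT and 4.92, 4.37 and 3.85 CPM in MUL1(-/-), a log2 fold change of 1.29 ± 0.13 (adjusted p = 4.13e-06) beside a neighbour median of 0.40. CMPK2 had 17, 28 and 20 counts in WT and 9, 6 and 7 in MUL1(-/-), or 0.127, 0.190 and 0.152 CPM against 0.0679, 0.0457 and 0.0546 CPM. Its fall of -1.47 ± 0.39 (adjusted p = 0.00805) therefore rests on few reads. CMPK2 passed the filter on low counts only through the WT libraries, where it is higher, so its call is not independent of that filter. RSAD2, which makes the chain-terminating nucleotide ddhCTP and lies beside CMPK2, had at most 5 counts in any library.

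ADAR, which edits adenosine to inosine in paired RNA, ranked 3 in WT by level per length (21.1 CPM per kb), at 180, 175 and 173 CPM in WT and 201, 197 and 217 CPM in MUL1(-/-), a small rise of 0.22 ± 0.06 (adjusted p = 0.014). That call was lost without WT library 2 (0.20, adjusted p = 0.0712). ADAR makes a constitutive p110 form and an interferon-inducible p150 form from separate first exons, and the exon bin at chr1:154607992-154608206 holds the start of 3 coding transcripts of the p150 kind, though 1 other transcript also has an exon there. The bin had 76, 84 and 76 counts in WT and 120, 107 and 163 in MUL1(-/-). Its share of the counts of ADAR was 0.315%, 0.325% and 0.332% in WT and 0.450%, 0.413% and 0.586% in MUL1(-/-), so the groups did not overlap. The exact two-sided permutation test gave p = 0.1, the smallest that 3 against 3 libraries allow.

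**Figure D3:**
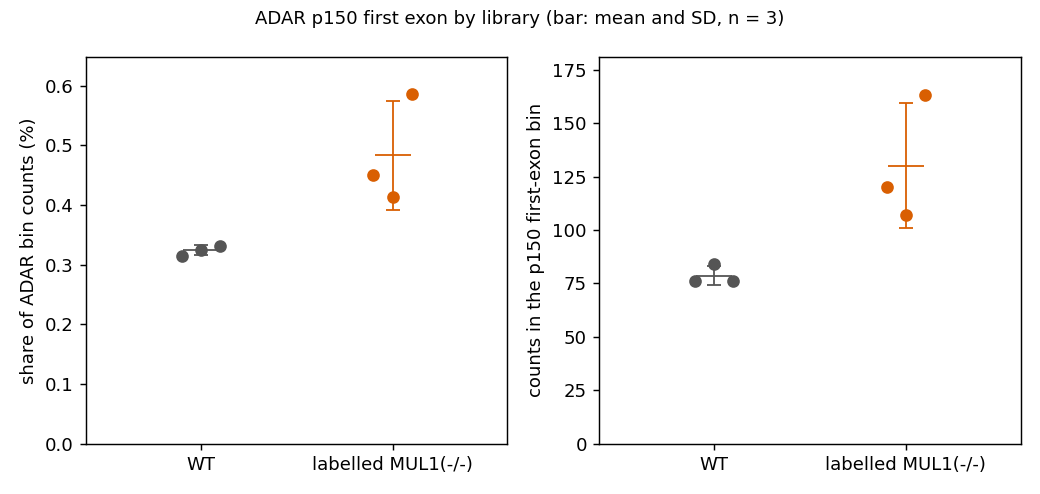
Share of ADAR bin counts (left, %) and counts (right) in the p150 first-exon bin, which 1 other transcript also uses, for each of the 3 WT and 3 MUL1(-/-) libraries, with mean and SD. The MUL1(-/-) shares, mean 0.483%, all lie above the WT shares, mean 0.324%.

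The remaining members have less defined roles. IFI44 and IFI44L, paralogs within 44.2 kb on chromosome 1 that limit the interferon response or virus growth, were both higher. IFI44 had 0.365, 0.312 and 0.265 CPM in WT and 0.769, 1.01 and 1.13 CPM in MUL1(-/-), a log2 fold change of 1.62 ± 0.22 (adjusted p = 4.74e-05). IFI44L had 2.06, 1.51 and 1.49 CPM in WT and 3.40, 3.78 and 3.21 CPM in MUL1(-/-), with 1.04 ± 0.15 (adjusted p = 8.93e-05), just past the fold threshold. All 11 and all 19 of their bins with at least 20 counts were higher, and the median of the neighbours was 0.03 for each.

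IFI6 and IFI27 are small hydrophobic proteins of the same family, and they moved in opposite directions. IFI6 went from 16.0, 15.2 and 20.8 CPM in WT to 9.72, 8.99 and 7.99 CPM in MUL1(-/-), a fall of -0.96 ± 0.12 (adjusted p = 2.85e-05), just short of the fold threshold and beside a neighbour median of -0.43. IFI27 went from 3.36, 3.11 and 3.56 CPM to 5.73, 4.76 and 3.57 CPM, and the third MUL1(-/-) library nearly met the highest WT library. The IFI27 difference of 0.49 ± 0.15 (adjusted p = 0.0214) was not called without WT library 1 (0.49, adjusted p = 0.0644), WT library 2 (0.42, adjusted p = 0.0954), MUL1(-/-) library 1 (0.32, adjusted p = 0.130) or MUL1(-/-) library 2 (0.48, adjusted p = 0.0548), or in its most counted bin (0.22).

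LGALS3BP, a secreted glycoprotein, was the highest member on the per-length scale, at 449, 417 and 422 CPM in WT and 443, 418 and 466 CPM in MUL1(-/-), and its log2 fold change of 0.04 ± 0.06 had an interval from -0.08 to 0.17. IFI35 was at 0.06 ± 0.11 and EPSTI1 at 0.38 ± 0.15 (adjusted p = 0.0663). XAF1, which promotes cell death, had 0 to 7 counts.

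**Figure D4:**
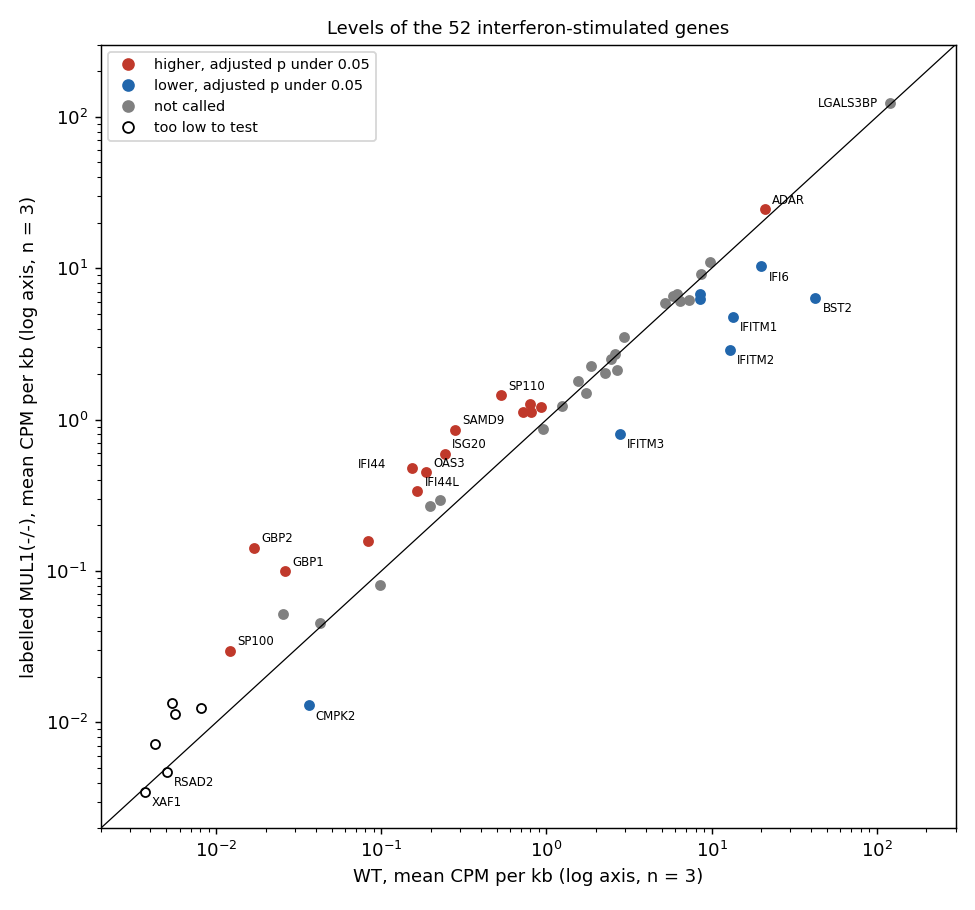
Mean CPM per kb of exon bins (log axes, 3 libraries a genotype) of all 52 members in WT (x) and MUL1(-/-) (y), where the line marks equal levels. The 9 members higher past both thresholds had 0.0121 to 0.533 CPM per kb in WT, while ADAR, higher by adjusted p alone, had 21.1; BST2, IFITM1, IFITM2 and IFI6 lie below the line at the upper end, CMPK2 below it at the lower end, and LGALS3BP, at 120 and 123 CPM per kb, stays near the line.

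Other genes of the pathway were read from lists that hold none of the members. Of 29 interferon ligands and signalling genes 21 were tested, 4 were higher and 5 lower by adjusted p, beside 19.3% and 18.5% of all tested genes, and none passed the fold threshold in either direction. IRF8, a factor of immune cells, was at 8.71, 8.64 and 9.25 CPM in WT and 5.13, 5.75 and 3.25 CPM in MUL1(-/-) (-0.91 ± 0.16, adjusted p = 0.000488). TYK2, the kinase on IFNAR1, averaged 103 ± 5.09 and 156 ± 5.59 CPM (0.60 ± 0.07, adjusted p = 9.3e-06) beside a neighbour median of 0.51. IFNB1, the first interferon that infected cells release, had 0 counts in every WT library and at most 0.0078 CPM, a single count, in MUL1(-/-).

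Of 14 nucleic acid sensors and adaptors 12 were tested, 5 were higher and 2 lower by adjusted p, beside the same 19.3% and 18.5% of all tested genes. IFI16, a DNA sensor that is itself interferon-inducible, was at 0.201, 0.251 and 0.235 CPM in WT and 34.7, 42.5 and 36.6 CPM in MUL1(-/-), a log2 fold change of 7.36 ± 0.14 (adjusted p = 2.46e-13). TICAM1, the adaptor of the endosomal RNA sensor TLR3, went the other way, from 4.72, 4.18 and 3.76 CPM to 0.0603, 0.114 and 0.226 CPM (-4.98 ± 0.27, adjusted p = 8.72e-09). Both log2 changes are larger than that of any tested member.

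A further list of 43 interferon-stimulated genes had 37 tested, of which 9 were higher and 7 lower by adjusted p, against 19.3% and 18.5% of all tested genes, and 4 and 0 past both thresholds, against 4.17% and 3.75%, with a median log2 fold change of 0.01. TNFSF10, the death ligand TRAIL, rose from a mean of 0.123 ± 0.0389 CPM to 0.542 ± 0.104 CPM (2.13 ± 0.29, adjusted p = 5.7e-05). PSMB8, a subunit of the immunoproteasome, rose from 0.185 ± 0.0435 CPM to 0.440 ± 0.0897 CPM (1.24 ± 0.27, adjusted p = 0.00253). As with the higher members of the main list, the genes higher past both thresholds started low.

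The labels were checked against the targeted gene and cell markers. MUL1 itself had 14.6, 14.6 and 18.2 CPM in WT and 17.8, 15.9 and 18.6 CPM in the libraries labelled MUL1(-/-) (0.14 ± 0.10, adjusted p = 0.302), so its count does not check the labels, since a knockout can leave the transcript in place. All 8 HEK293 markers were expressed, 1 higher and 4 lower by adjusted p, beside 19.3% and 18.5% of all tested genes. PAX2 fell past both thresholds (-1.79 ± 0.17), KRT8 fell by adjusted p alone (-0.93 ± 0.07), and NEFM rose past both (1.07 ± 0.13). Of 10 leukocyte markers 8 were tested and 2 were higher by adjusted p, beside the same 19.3% of all tested genes. PTPRC was among these (1.95 ± 0.38, adjusted p = 0.000987), at a mean of 0.350 CPM in MUL1(-/-). The summed level of the list was 4.12 to 5.09 CPM in WT and 4.80 to 6.09 CPM in MUL1(-/-), CD3E had at most 0.0078 CPM and MS4A1 at most 0.0224 CPM in any library, and the part of these markers in the results was not tested. In bulk RNA, fewer cells that express a gene and less RNA per cell cannot be told apart.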

How the data were processed

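The mRNA of 3 WT and 3 MUL1(-/-) HEK293 libraries was measured. What the authors deposited are whole-number counts of reads in the exon bins of a flattened annotation, not normalized. The submitters' processing notes name Trimmomatic 0.36, STAR 2.5.2b and GRCh38, and the counting program is not given in the sources used here. Bins totalled 132849479 to 149317215 counts in WT and 127466071 to 128125459 in MUL1(-/-). Bin counts were added up for each gene. A read is counted in every bin it touches, so sums exceed reads, and limits from counts cover counting error only. Overlapping genes on the same strand share a joined identifier (2031 of 54848, with 20.98% of counts), and their bins went to each gene with a GENCODE 29 exon there. Whether counting used strand is not given. In 11 pairs of bins on the same bases of both strands, with at least 100 counts, the median ratio of smaller to larger was 1.0. Antisense partners thus shared reads in such bins and may share them elsewhere.

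Genes were compared with edgeR 4.0.16 in R 4.3.3 (filterByExpr, TMM, quasi-likelihood test, Benjamini-Hochberg adjustment over 26060 genes) at the study's thresholds. DESeq2 1.42.0, the study's tool, and limma-voom 3.58.1 were alternatives among 16, with other scalings, filters, bin choices, a replicate block, neighbours and left-out libraries. On simulated counts of 25555 genes, 200 of them changed by 2 log2 units, edgeR recovered 193 with 4 false calls. The counts were drawn independently, and fewer genes were changed than were called in the real data. Calls were scored past both thresholds only, so the simulation does not cover smaller changes called by adjusted p alone. Libraries of a genotype differed by more than sampling noise (chi-square per degree of freedom 3.32 to 11.1).

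The members, role groups and lists were chosen with earlier results of these data known. Values in every library are given for members past both thresholds, those with the 5 largest and 5 smallest log2 fold changes past the adjusted p, the receptor and transcription factors, and the highest member by CPM per kb of each role group, and from other lists for the 2 called genes of largest change, and for MUL1. Some genes of these other lists are not reported here. Promoter windows and their coordinates are from RefSeq (GRCh38.p14), with 56 windows for 41 members. Sequences of reads were not used here.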

Additional observations from a re-analysis of the deposited data

How the results depend on the processing

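Of 719 member fold changes recomputed under 16 alternatives, 673 kept their direction and side of the threshold, 10 lost their call, 19 gained a call, and 17 changed sign, in 11 genes, 0 of them called in either fit. The setting less the median of 20 neighbours shifts the fold change alone and keeps the main fit's adjusted p. It could not gain or lose a call by that p, and it counts as kept wherever the sign held. In that setting STAT2 was 0.04, IFIT1 0.28, MX1 0.08, ISG15 0.52 and PARP12 0.11. With a library left out IRF7 ranged from -0.59 to 0.08, TRIM22 from -0.12 to 0.31, IRF1 from -0.02 to 0.02, IFI35 from -0.0 to 0.12 and PML from -0.09 to 0.11. WT replicate 2 turned IRF7, TRIM22, IRF1 and IFI35, WT replicate 3 PML and IRF1, MUL1(-/-) replicate 1 IRF1 and MUL1(-/-) replicate 3 TRIM22. In the most counted bin IRF1 was -0.13 and IFI35 -0.02, and in unshared bins IRF1 was -0.05 and IRF9 -0.13. The cause of these sign changes was not tested. The count of members higher past both thresholds was 9, and 7 to 12 with a library left out, the highest without MUL1(-/-) replicate 3. It was 5 when at least 1 CPM in at least 3 libraries was required, a filter that leaves fewer genes to test. In the most counted bin it was 7, where GBP1, SP100, IFI44 and CMPK2 were not tested. The count lower past both thresholds was 5, and 5 to 6 with a library left out. It was 4 under the filter of 1 CPM and 4 in the most counted bin. By adjusted p alone 13 to 17 members were higher and 8 to 9 lower with a library left out, and 12 and 6 in the most counted bin. The mean ADAR p150 share in MUL1(-/-) was 0.431% to 0.518% with a library left out, where the exact permutation test gave p = 0.2, the smallest then possible. Scaling to library totals alone moved the median of all genes by 0.06 and the split of calls by adjusted p from 5041 higher and 4814 lower to 6215 and 3970, and called 21 members higher and 8 lower.

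Whether the replicate numbers pair the samples was not settled. Same-numbered libraries deviated together with r = -0.107, 0.169 and 0.1 over 16660 genes, and different-numbered libraries with r from -0.187 to 0.0985. Deviations from the mean of 3 libraries are tied to each other, so these values cannot exclude pairing. With the replicate block 9 members were higher and 5 lower past both thresholds, and by adjusted p alone 16 and 8, with IRF9 the member gained (0.29, adjusted p = 0.0344). Depth limits OAS1, OAS2, MX2, RSAD2, SAMD9L and XAF1, with 0 to 21 counts a library, and leaves wide errors for SP100, GBP1, CMPK2 and OASL. The 3 libraries a genotype limit the exact test, and the origin of the replicates is not given.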
